A study of Mus musculus with 312 samples.

Results

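The genes described here are 9 building blocks of the basement membrane: the laminin alpha chains Lama1, Lama3 and Lama5, the beta chains Lamb1, Lamb2 and Lamb3, the gamma chain Lamc1, and the linkers Nid1 (nidogen-1) and Hspg2 (perlecan). They were taken by the symbol of their Entrez gene identifier, and all 9 were found among the 25136 genes that were counted. Transcripts were measured in single cells of the FVB/NJ mouse mammary gland, with 1 cDNA library per cell from the microfluidic Fluidigm C1 system. The labels give 237 cells as adult basal and 75 cells as pregnancy basal, and name neither an animal nor a day of pregnancy. The study's text states a sort for adult basal cells (Lin– CD29hi CD24+). The pregnancy cells it describes on this instrument are total epithelium and number more than 75, so that description need not cover the cells used here. The basal identity of these pregnancy cells rests on their labels and on the markers below. No allele, transgene or agent is named for either stage. Of the adult titles, 112 carry the mark (2), here called marked, and 125 do not, here called unmarked. The labels do not explain the mark. All pregnancy titles have 1 form, so the effect of stage cannot be told apart from that of a capture run.

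A basement membrane is the thin sheet of matrix on which epithelium rests, and in the mammary gland the basal cells face it. Laminins are cross-shaped trimers of an alpha, a beta and a gamma chain, and each is named by the numbers of its chains, so that laminin-111 joins the products of Lama1, Lamb1 and Lamc1. Laminins join into a network that is held at the cell surface by integrins, dystroglycan and syndecans. Nidogen binds both the laminin gamma1 chain and collagen IV and so ties the laminin network to the collagen network, and perlecan is a heparan sulfate proteoglycan that bridges the same components. The Lama3 and Lamb3 products are chains of the laminin of hemidesmosomes, the anchoring junctions of basal epithelial cells. In culture, mammary epithelial cells need contact with laminin to make milk proteins.

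The link between the laminins and the linkers in this set runs through the gamma1 chain. Its nidogen-binding loop is encoded in exon 14 of the 28 exons of Lamc1 transcript Lamc1-201, at chr1:153243361-153243381 on the minus strand (GRCm38). The codons of the loop, residues 831 to 837 of 1607, are in capitals in the 63 coding bases around it, shown because it is the site that joins these members.
Lamc1, chr1:153243340-153243402: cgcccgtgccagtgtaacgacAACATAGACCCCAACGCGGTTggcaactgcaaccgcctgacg
The translated sequences of the other 8 members do not hold these residues. Of the 9 members, 6 have a promoter in the RefSeq table for GRCm38.p6, while Lama1, Lama3 and Lamc1 have no entry there. The windows searched are the 250 bases before each start in that table, which can lie inside the span of the gene given below, as both windows of Lamb3 do. Of the Lama5 window, 45 bases lie inside that span, and the other 205 are shown because Lama5 was the member called lower in pregnancy, as described below. The capitals mark each GGGCGG (GC box) on either strand.
Lama5, chr2:180225905-180226109, minus strand: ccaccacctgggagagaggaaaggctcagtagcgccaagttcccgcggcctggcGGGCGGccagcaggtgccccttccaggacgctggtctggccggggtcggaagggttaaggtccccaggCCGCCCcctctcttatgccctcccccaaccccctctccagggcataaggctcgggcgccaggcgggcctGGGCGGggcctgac
The whole window of Lama5 held 4 matches, 3 of them in the bases shown, that of Hspg2 held 5, that of Lamb1 held 2 and that of Nid1 held 1, while those of Lamb2 and Lamb3 held none. Among 32851 promoter windows of this length, 32.7% held at least 1. The TATA box TATAAA, found in 12.4% of all windows on either strand, was in none of the 6 members' windows. The same was true of the AP-1 motif TGACTCA, found in 4.46%, and of the E-box CACGTG, found in 6.02% of all windows. A match is a description of the letters and not a binding site.

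Cells were retained with at least 50000 assigned read pairs and 1000 genes, which kept 81 of 112 marked adult, 58 of 125 unmarked adult and 71 of 75 pregnancy cells. Their assigned reads ranged from 51464 to 405910, with medians of 174910, 101320.5 and 230645 in marked adult, unmarked adult and pregnancy cells. At least 6 of 11 core basal genes reached a level of 100 CPM (counts scaled to 1000000 assigned reads per cell) in 76 of 81, 51 of 58 and 70 of 71 of these cells, while 3 or more of 7 luminal genes did so in 4, 3 and 1. After each cell was thinned to 50000 reads, the median number of genes detected was 2313 in marked adult, 2210.5 in unmarked adult and 3220 in pregnancy cells. Mitochondrial genes took a median of 9.65%, 15.6% and 18.4% of reads in the 3 groups in that order. Of 8 fibroblast genes, the summed level had a median of 38.9 CPM in marked adult cells (range 0 to 6160), 78.0 CPM in unmarked adult cells (0 to 38181) and 1008 CPM in pregnancy cells (95.7 to 7703). In pregnancy that sum was mostly Dcn and Fbn1, with medians of 555 and 119 CPM, while Col1a1, Col1a2, Col3a1, Pdgfra, Lum and Dpt each had a median of 0 CPM. The study also lists Fbn1 among its basal signature genes, so that gene does not mark fibroblasts alone. Markers of endothelial, pericyte, immune and Schwann cells summed to medians of 0 to 19.0 CPM in every group. The part of these differences in the results below was not tested, and each call was also made without the 3 marked, 7 unmarked and 4 pregnancy cells that had 3 or more genes of another cell type.

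The design sets pregnancy cells against adult cells. Because no animal is named, each group was treated as 1 sample, so there is no replicate check, no p-value is given, and the intervals printed cover counting error only. A gene was called higher or lower in pregnancy where its mean CPM differed by at least 1 on the log2 scale, with 10 CPM added, from each of the 2 adult title sets, and the difference between those sets shows how far adult cells alone can differ. The added 10 CPM understates the change of low genes. By this rule Lama1 and Lamc1 were called higher, Lama5 was called lower, and the other 6 members had no call. The same 3 genes were called in the same directions without the cells that had 3 or more genes of another cell type, and Nid1 was then the member called between the adult sets. The same rule called 9.83% of 9306 tested genes higher and 4.72% lower, so 2 of 9 and 1 of 9 are to be read against those shares. The median log2 ratio of pregnancy over adult was 0.52 over the members and 0.0071 over all tested genes. Without sign, the median over all tested genes was 0.64 for pregnancy over adult and 0.63 between the adult sets. Between the adult sets it was 0.48 over the members. Between the 2 adult sets, Lama5, Lamb2 and Nid1 passed the same size of difference, and so did 36.5% of 9014 tested genes. All 9 members passed the filter of a mean of 10 CPM in pregnancy or adult.

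**Figure D1:**
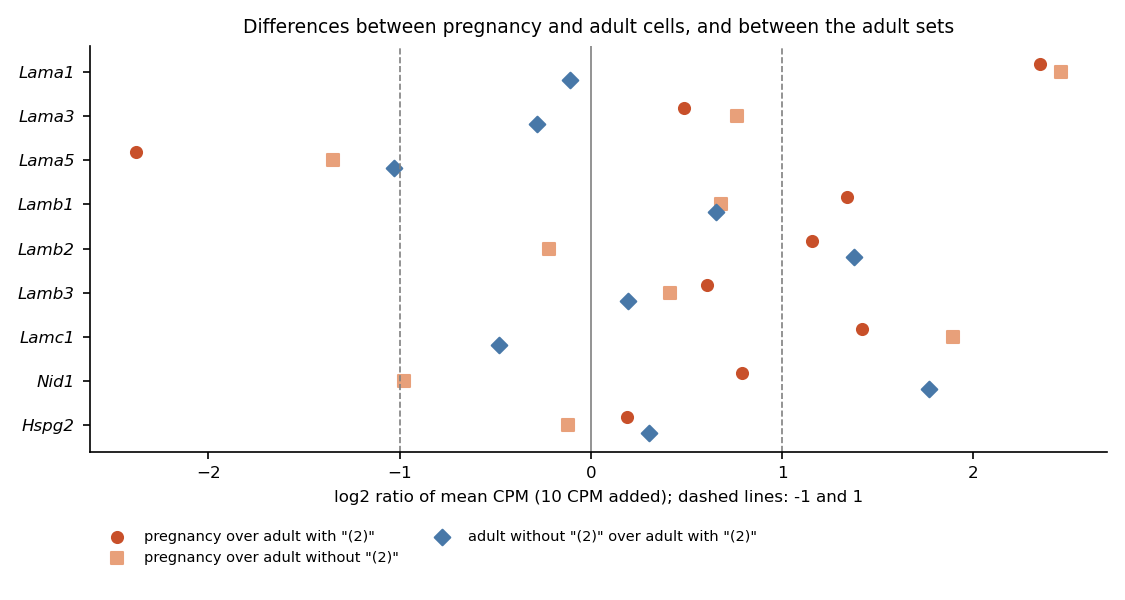
Log2 ratio of mean CPM, with 10 CPM added, for each of the 9 genes: pregnancy over marked adult cells (circles), pregnancy over unmarked adult cells (squares) and unmarked over marked adult cells (diamonds), with dashed lines at -1 and 1. Both pregnancy ratios lie beyond 1 for Lama1 and Lamc1 and beyond -1 for Lama5, while the 2 ratios of Lamb2, Nid1 and Hspg2 lie on opposite sides of 0.

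The alpha chains differed in direction between the stages. Lama1 (chr17:67697127-67822645, 63 exons), which encodes the alpha1 chain of laminin-111, was the member with the largest ratio. In marked adult cells its level ranged from 0 to 3947 CPM with a median of 15.8, in unmarked adult cells from 0 to 1560 CPM with a median of 14.9, and in pregnancy cells from 5.46 to 9517 CPM with a median of 586. The groups overlapped in range but little in their bulk: 70 of 71 pregnancy cells lay above the adult median, 60 lay above the adult upper quartile, and 12 of 139 adult cells lay above the pregnancy median. The mean was 173 CPM in marked adult, 159 CPM in unmarked adult and 921 CPM in pregnancy cells, a 5.51-fold difference from all adult cells. The log2 ratio was 2.39 (counting interval 2.32 to 2.46), with 2.35 against marked and 2.46 against unmarked cells, while the adult sets differed by -0.11. After thinning, a Lama1 read was found in 39 of 81 marked adult cells (48.1%, exact Clopper-Pearson 95% interval 36.9 to 59.5%), 31 of 58 unmarked adult cells (53.4%, 39.9 to 66.7%) and all 71 pregnancy cells (100%, 94.9 to 100%). At 100 CPM or more, the counts were 27, 17 and 68 cells. A single marked adult cell gave 28.2% of the marked set's summed level, and mitochondrial genes took 52.7% of that cell's reads; without it the marked mean was 126 CPM.

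Lama5 (chr2:180176373-180225904, 79 exons), which encodes the alpha5 chain of laminin-511 and laminin-521, differed the other way. It ranged from 0 to 3270 CPM in marked adult, 0 to 683 CPM in unmarked adult and 0 to 162 CPM in pregnancy cells, with medians of 0, 0 and 3.80 CPM. The difference lay in the upper range, since 16 of 139 adult cells exceeded the highest pregnancy cell. At least 100 CPM was reached in 14 of 81, 8 of 58 and 2 of 71 cells. The mean was 116 CPM in marked adult, 51.7 CPM in unmarked adult and 14.2 CPM in pregnancy cells, a log2 ratio of -2.03 (counting interval -2.21 to -1.86). Detection did not follow the mean: after thinning, a read was found in 35.8% of marked adult (25.4 to 47.2%), 36.2% of unmarked adult (24.0 to 49.9%) and 31.0% of pregnancy cells (20.5 to 43.1%). The call rested on the mean over cells, and with the mean of log2 values the ratio was -0.52 and the call was lost. That setting also moved the median of all tested genes by 0.50. Within adult cells the unmarked set was already lower than the marked set by -1.03 on the log2 scale, and a single cell gave 34.8% of the marked sum. The highest unmarked cell, at 683 CPM, held 0 of 11 core basal genes at 100 CPM.

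Lama3 (chr18:12333417-12583013, 75 exons) encodes the alpha3 chain, found in the laminin of hemidesmosomes. Its level ranged from 0 to 2173 CPM in marked adult (median 96.3), 0 to 1732 CPM in unmarked adult (median 46.1) and 0 to 3362 CPM in pregnancy cells (median 147). The 3 groups overlapped through most of that range, with 55 of 139 adult cells above the pregnancy median. The means of 296, 242 and 419 CPM gave a log2 ratio of 0.60 and no call. With size factors by the poscounts rule, which also moved the median of all genes by 0.25, the ratio was 1.13 and Lama3 was called higher. After thinning it was detected in 74.1% (63.1 to 83.2%), 63.8% (50.1 to 76.0%) and 91.5% (82.5 to 96.8%) of cells. Lama3 shares 197 exon bases, 1.83% of its own, with the antisense gene Gm29200. Strand use in counting is not stated, so reads there cannot be told apart.

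**Figure D2:**
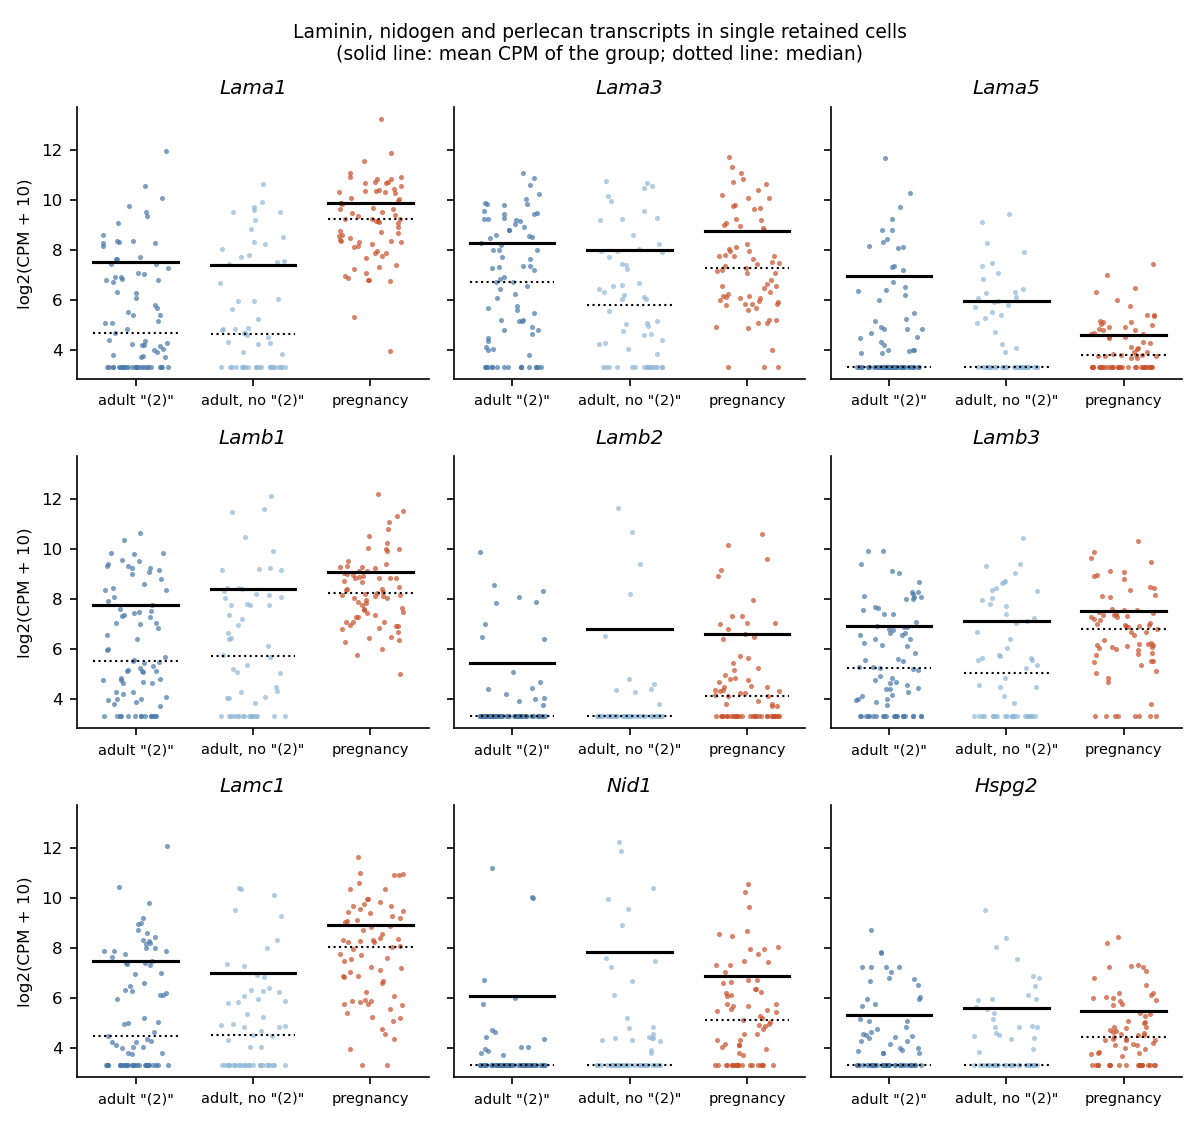
Level of each of the 9 genes in every retained cell, as log2(CPM + 10), in 81 marked adult, 58 unmarked adult and 71 pregnancy cells, where solid lines give the mean CPM and dotted lines the median CPM of a group on the same scale, and points on the lowest row are cells with no read. Lama1 and Lamb1 have no pregnancy cell at 0, Lama5 has its high cells in the adult sets, and the mean lies well above the median in most panels.

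The beta chains had no call, and they differed in how evenly they were spread over cells. Lamb1 (chr12:31265146-31329644, 33 exons), the beta chain of laminin-111 and laminin-511, ranged from 0 to 1572 CPM in marked adult (median 35.9), 0 to 4408 CPM in unmarked adult (median 42.9) and 22.4 to 4654 CPM in pregnancy cells (median 293). Pregnancy cells were uniform in having it: 70 of 71 lay above the adult median, and after thinning all 71 held a read (100%, 94.9 to 100%), against 56 of 81 marked (69.1%, 57.9 to 78.9%) and 35 of 58 unmarked adult cells (60.3%, 46.6 to 73.0%). The means of 205, 329 and 535 CPM gave log2 ratios of 1.34 against marked and 0.68 against unmarked cells, which is below the size needed for a call. With at least 100000 reads and 1500 genes per cell, or with the mean of log2 values, both ratios passed 1. The mean of log2 values also moved the median of all tested genes by 0.50. A single unmarked cell gave 23.1% of that set's sum. Without that cell alone, the ratio against unmarked cells was 1.02 and Lamb1 was called higher. Without the highest cell of each group, pregnancy included, that ratio was 0.86 and Lamb1 was not called. It was 0.54 without cells with fewer than 6 core basal genes and 0.58 without cells over 30% mitochondrial reads.

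Lamb2 (chr9:108479847-108490530, 33 exons), the beta chain of laminin-121 and laminin-521, was absent from most adult cells. No read was found in 63 of 81 marked and 47 of 58 unmarked adult cells, nor in 29 of 71 pregnancy cells, and the medians were 0, 0 and 7.44 CPM. After thinning it was detected in 14.8% (7.90 to 24.4%), 13.8% (6.15 to 25.4%) and 39.4% (28.0 to 51.7%) of cells. The highest cells had 940, 3167 and 1532 CPM, and the means were 33.0, 102 and 86.1 CPM. More pregnancy cells held the transcript, but its mean was higher than in marked (1.16 on the log2 scale) and not in unmarked cells (-0.22). The top unmarked cell, in which 3 endothelial genes reached 100 CPM and mitochondrial genes took 43.8% of reads, gave 53.7% of its set's sum, and without it that mean was 47.8 CPM. Without the cells that had 3 or more genes of another cell type, the ratio over all adult cells was 0.94 in place of 0.42, and with at least 100000 reads and 1500 genes per cell it was 1.44 and Lamb2 was called higher.

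Lamb3 (chr1:193294353-193343878, 23 exons), the beta chain of the hemidesmosomal laminin, ranged from 0 to 966 CPM in marked adult (median 28.1), 0 to 1385 CPM in unmarked adult (median 23.2) and 0 to 1278 CPM in pregnancy cells (median 101). The ranges were alike, and 58 of 71 pregnancy cells lay above the adult median. Means of 110, 127 and 173 CPM gave a log2 ratio of 0.52 and no call. It was detected after thinning in 63.0% (51.5 to 73.4%), 53.4% (39.9 to 66.7%) and 85.9% (75.6 to 93.0%) of cells.

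Lamc1 (chr1:153218922-153332786), the gamma1 chain of laminin-111, laminin-511 and most other laminins, was the other member called higher. It ranged from 0 to 4324 CPM in marked adult (median 12.4), 0 to 1325 CPM in unmarked adult (median 12.7) and 0 to 3167 CPM in pregnancy cells (median 255). The highest cell was an adult one, yet 67 of 71 pregnancy cells lay above the adult median and 19 of 139 adult cells above the pregnancy median. The mean was 169 CPM in marked adult, 119 CPM in unmarked adult and 469 CPM in pregnancy cells, 3.16 times that of all adult cells. The log2 ratio was 1.60 (counting interval 1.52 to 1.68), with 1.42 against marked and 1.90 against unmarked cells and -0.48 between the adult sets. It was detected after thinning in 42 of 81 (51.9%, 40.5 to 63.1%), 27 of 58 (46.6%, 33.3 to 60.1%) and 64 of 71 cells (90.1%, 80.7 to 95.9%). The top marked cell, which held 4 of 11 core basal genes at 100 CPM, gave 31.5% of its set's sum, and without it the marked mean was 117 CPM. The pregnancy cell with the highest level, 3167 CPM, had 4 of 8 fibroblast genes at 100 CPM, and Lamc1 was called higher also without such cells.

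The linkers were not called. Nid1 (chr13:13437602-13512275, 20 exons) ranged from 0 to 2353 CPM in marked adult, 0 to 4751 CPM in unmarked adult and 0 to 1493 CPM in pregnancy cells, with medians of 0, 0 and 24.9 CPM. It was found in more pregnancy cells than adult cells: after thinning in 10 of 81 marked (12.3%, 6.08 to 21.5%), 16 of 58 unmarked (27.6%, 16.7 to 40.9%) and 38 of 71 pregnancy cells (53.5%, 41.3 to 65.5%). The means of 57.8, 221 and 107 CPM put pregnancy between the adult sets, at 0.79 above marked and -0.98 from unmarked on the log2 scale, while the adult sets differed by 1.77. A few cells set the adult means, since 1 marked cell gave 50.3% and 1 unmarked cell 37.0% of their sums. That unmarked cell was also the highest of its set for Lama1. The sign of its ratio over all adult cells, -0.21, changed under 5 of 11 other settings, to as high as 1.24 with the mean of log2 values. That last setting also moved the median of all tested genes by 0.50. Nid1 shares 143 exon bases, 2.06% of its own, with the antisense gene Gm48682, and since strand use in counting is not stated, reads there cannot be told apart.

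Hspg2 (chr4:137468751-137570630, 97 exons) was the member with the lowest level per length in all adult cells and the one whose group means lay closest together. It ranged from 0 to 410 CPM in marked adult, 0 to 713 CPM in unmarked adult and 0 to 335 CPM in pregnancy cells, with means of 29.5, 38.9 and 35.1 CPM. The groups overlapped throughout, and the log2 ratio was 0.05 (counting interval -0.11 to 0.22), with a sign that turned under 2 of 11 other settings. After thinning it was detected in 35.8% (25.4 to 47.2%), 36.2% (24.0 to 49.9%) and 46.5% (34.5 to 58.7%) of cells. At 100 CPM or more, the counts were 9, 6 and 8 cells.

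Across the set, the share of cells with a read after thinning was higher in pregnancy than in each adult set for 8 of 9 members, all but Lama5, as it was for 65.3% of all tested genes. The median cell held 4 of the 9 transcripts in each adult set and 7 in pregnancy. At least 6 of 9 were found in 15 of 81 marked (18.5%, 10.8 to 28.7%), 13 of 58 unmarked (22.4%, 12.5 to 35.3%) and 56 of 71 pregnancy cells (78.9%, 67.6 to 87.7%). The summed level of the 9 genes had a median of 940 CPM (range 0 to 5512), 1037 CPM (18.7 to 6485) and 2595 CPM (338 to 10375). Pregnancy cells also held more genes of any kind at equal depth, as given above, and the part of that in these shares was not tested.

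Levels of different chains can be compared only per kilobase of exon (RPKM, from mean CPM and the deposited exon lengths). The makeup of the alpha chains differed between stages, and that of the beta chains less so. Of the summed alpha-chain RPKM, Lama1 made up 27.1% in marked adult, 32.8% in unmarked adult and 68.7% in pregnancy cells. Lama3 made up 42.7%, 45.9% and 28.8%, and Lama5 15.2%, 8.90% and 0.885%, with Lama2 and Lama4 as the remainder. Of the beta chains, Lamb1 made up 51.9%, 53.5% and 61.5%, Lamb2 8.58%, 17.0% and 10.2%, and Lamb3 39.5%, 29.5% and 28.3%.

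In pregnancy the order of mean level per length was Lama1 (96.7 RPKM), Lamb1 (92.6), Lamc1 (61.5), Lamb3 (42.6), Lama3 (40.6), Nid1 (17.7), Lamb2 (15.3), Hspg2 (2.47) and Lama5 (1.25). In all adult cells it was Lamb1 (44.5 RPKM), Lamb3 (28.9), Lama3 (26.5), Nid1 (20.8), Lamc1 (19.5), Lama1 (17.6), Lamb2 (11.0), Lama5 (7.82) and Hspg2 (2.36). The adult order was firm only at its ends, since Lamb1 was highest and Hspg2 lowest in both title sets. Pairs that changed places between the sets included Lama3 and Lamb3, Lamc1 and Lama1, Lama1 and Lamb2, Lamb2 and Lama5, and Nid1 and its neighbours. Every pair of neighbours in these orders lay closer than the SD over cells of the higher one. Within single cells, Lama1 exceeded Lama3 per length in 28 of 81 marked (34.6%, 24.3 to 46.0%), 18 of 58 unmarked (31.0%, 19.5 to 44.5%) and 59 of 71 pregnancy cells (83.1%, 72.3 to 91.0%). Lamb1 exceeded Lamb3 in 48.1% (36.9 to 59.5%), 46.6% (33.3 to 60.1%) and 73.2% (61.4 to 83.1%). A level per length assumes even coverage along transcripts, which was not tested.

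**Figure D3:**
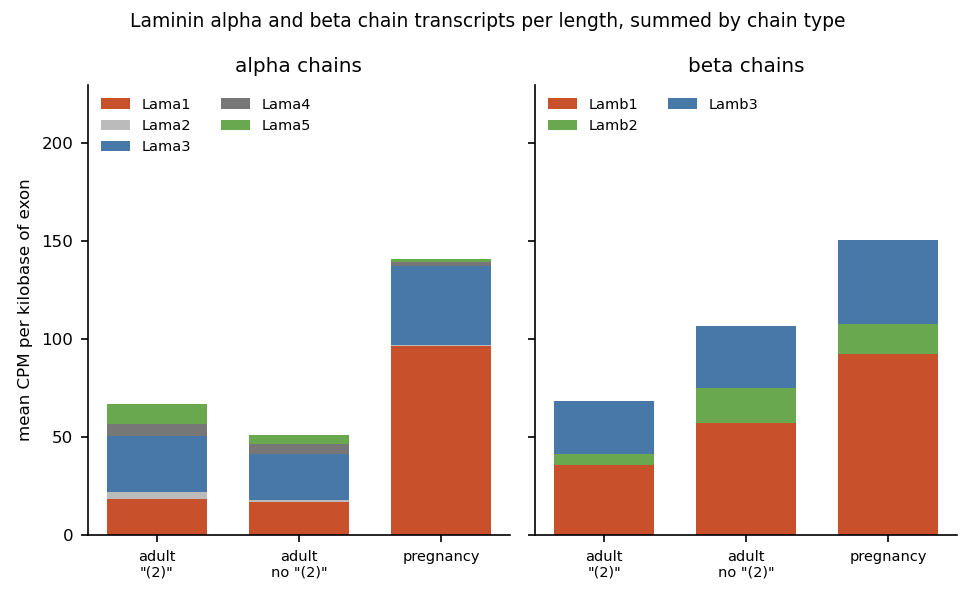
Mean level per kilobase of exon (CPM per kilobase) of the laminin alpha and beta chain genes in marked adult, unmarked adult and pregnancy cells, stacked by gene within each chain type from 0. The Lama1 part of the alpha bar is 18.2 and 16.7 in the adult sets and 96.7 in pregnancy, and Lamb1 is the largest part of each beta bar.

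Whether a cell held the transcripts of all chains of a trimer was counted after thinning. A read of each chain says nothing of the protein. For laminin-111 (Lama1, Lamb1, Lamc1) this was so in 15 of 81 marked adult (18.5%, 10.8 to 28.7%), 12 of 58 unmarked adult (20.7%, 11.2 to 33.4%) and 64 of 71 pregnancy cells (90.1%, 80.7 to 95.9%). This was the most common of the 6 sets in pregnancy, with an interval that overlapped that of laminin-311. Laminin-311 (Lama3, Lamb1, Lamc1) was complete in 34.6% (24.3 to 46.0%), 25.9% (15.3 to 39.0%) and 84.5% (74.0 to 92.0%). For laminin-511 (Lama5, Lamb1, Lamc1) the shares were 16.0% (8.83 to 25.9%), 13.8% (6.15 to 25.4%) and 31.0% (20.5 to 43.1%). Of the sets that contain Lamb2, laminin-121, laminin-321 and laminin-521 were found in 35.2%, 33.8% and 9.86% of pregnancy cells and in at most 7.41% of either adult set. With each chain at 100 CPM or more, laminin-111 was complete in 6.17% of marked, 3.45% of unmarked and 62.0% of pregnancy cells. Without thinning, a read of each laminin-111 chain was found in 43.2% of marked, 31.0% of unmarked and 97.2% of pregnancy cells. Pregnancy cells held more genes of any kind at equal depth, and the part of that in these shares was not tested.

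**Figure D4:**
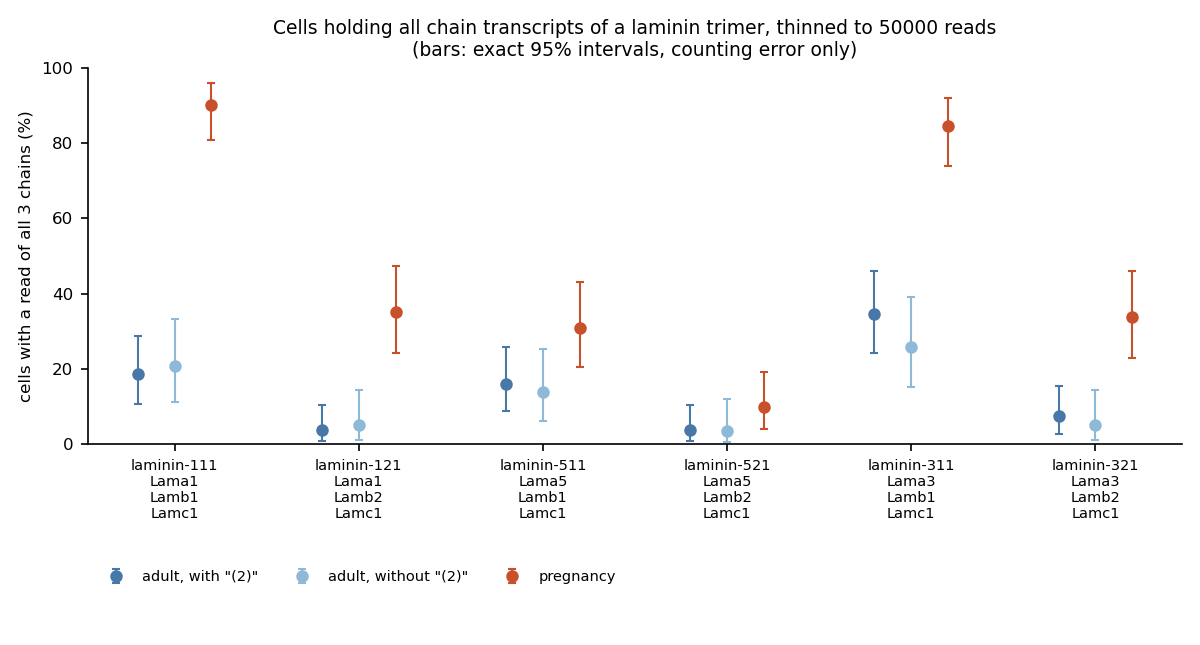
Percent of cells with a read of every chain of 6 laminin trimers after thinning to 50000 reads, in 81 marked adult, 58 unmarked adult and 71 pregnancy cells, with exact 95% intervals that cover counting error only. The pregnancy interval lies above both adult intervals for laminin-111, laminin-121, laminin-311 and laminin-321, and overlaps them for laminin-511 and laminin-521. Cells are not replicates of a stage, so neither position is a test between stages. Pregnancy cells also held more genes of any kind at equal depth.

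Within a group, thinned counts of the members were at most weakly correlated, which does not show that the members varied independently. Over the 36 pairs of members and 3 groups, Spearman correlations of thinned counts ranged from -0.25 to 0.33 over the 58 to 81 cells of a group, all thinned to the same depth, and counts this sparse allow no reading of weak values. By the rule for genes of like pattern, 3 members (Lama3, Lamb1 and Lamb3) were detected in at least 50% of cells of every group and were compared with 1015 other genes. For each of these members, the 3 genes with the highest mean correlation over the groups were checked, and none reached 0.3 in each group. Genes ranked lower were not checked.

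The rest of the basement membrane and its receptors was described with 5 lists, whose medians are over all their genes. Their calls are to be read against the 9.83% of all tested genes called higher and the 4.72% called lower. Collagen IV forms the network to which nidogen binds: of its 6 genes, 4 were tested, and Col4a1 (835 CPM in adult, 3952 CPM in pregnancy, log2 ratio 2.23) and Col4a2 (773 and 2264 CPM, 1.54) were called higher. Those are the chains of the common collagen IV trimer. Col4a5 (1.25) and Col4a6 (-0.40) had no call, and the list's median ratio was 1.05. Of 8 other linkers, 3 were tested and Tinagl1, a secreted basement membrane glycoprotein, was called higher (53.4 and 311.3 CPM, 2.34). Agrin (Agrn), a laminin-binding proteoglycan and the highest of that list per length in adult cells, had 308 and 556 CPM, a ratio of 0.84 and no call, and the list's median was -0.06. Nid2, the other nidogen, averaged 3.67 and 1.97 CPM and was not tested.

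Among 9 genes of matrix assembly, 7 were tested and 2 were called higher, with a list median of 0.59. They were Pxdn, the peroxidase that forms the crosslinks of collagen IV (78.5 and 538 CPM, 2.63), and Fbln2, a fibulin that binds laminin and nidogen (181 and 823 CPM, 2.13). Fbln2 differed by 1.07 between the adult sets as well. The summed fibroblast level, given above, was also higher in pregnancy, and it includes Fbn1, which the study lists as a basal gene. Without the cells that had 3 or more genes of another cell type, 8 of the 10 genes called in the 5 lists kept their call, all but Lama2 and Itgb4. Sparc, a collagen-binding protein and the highest of this list per length, had 2011 and 3059 CPM, a ratio of 0.60 and no call. Of 3 laminin chains outside the set (Lama2, Lama4 and Lamc3), 2 were tested, Lama2 was called lower (26.2 and 0.992 CPM, -1.72) and the median ratio over all 3 was -0.94. A single marked adult cell gave 99.1% of the Lama2 sum in its set, and without it the ratio against marked cells was 0.09 and the call was lost. Lama4, another alpha chain and the highest of this list per length, had 35.0 and 13.5 CPM and no call.

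The laminin receptors went in both directions: of 9 genes, 8 were tested, 1 was called higher and 3 were called lower, with a median of -0.27. Of all tested genes, 9.83% were called higher and 4.72% lower. Dag1, which encodes dystroglycan, a receptor for laminin-111, was called higher (76.4 and 207 CPM, 1.33), but had no call with at least 100000 reads and 1500 genes per cell. Itgb4, whose product pairs with integrin alpha6 to anchor hemidesmosomes to laminin, was called lower (46.1 and 1.86 CPM, -2.24), as were the laminin alpha5 receptor Bcam (27.8 and 7.19 CPM, -1.14) and the syndecan Sdc4 (13768 and 4862 CPM, -1.50). The calls of Itgb4 and Bcam rested on few cells: without the highest unmarked cell alone, the ratio against unmarked cells was -0.71 for Itgb4 and -0.46 for Bcam, and neither was called. Bcam also lost its call without the highest marked cell (-0.91 against marked cells). Sdc4 kept its call under each of those settings and was the highest of the list per length. Itgb4 was at 69.2 CPM in marked and 13.8 CPM in unmarked adult cells, a difference of -1.74 between the adult sets. Itga6 (0.39) and Itgb1 (0.32), the chains of a widely used laminin-binding integrin, had no call.

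**Figure D5:**
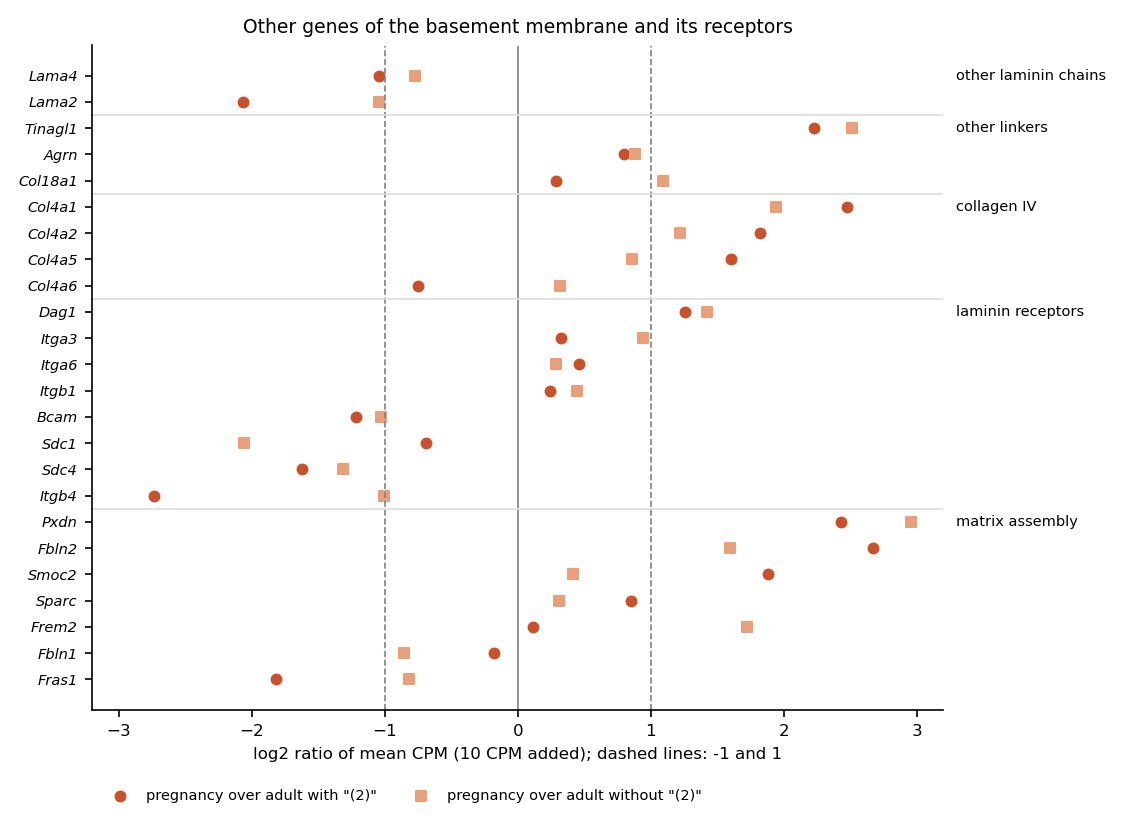
Log2 ratio of mean CPM, with 10 CPM added, of pregnancy over marked (circles) and over unmarked adult cells (squares) for the tested genes of 5 related lists, with dashed lines at -1 and 1. Tinagl1, Col4a1, Col4a2, Dag1, Pxdn and Fbln2 lie beyond 1 in both, and Lama2, Bcam, Sdc4 and Itgb4 lie beyond -1 in both.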

How the data were processed

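Single cells were captured on the Fluidigm C1 and libraries were made with Nextera XT. According to the submitters' processing notes and the study's methods, the authors mapped read pairs to mm10 with Subread 1.5.0 and assigned them to RefSeq genes with featureCounts; they deposited the counts per cell, by Entrez identifier, with no normalization. No molecular identifiers were used, so intervals and floors cover counting error only, and strand use in counting is not given in the sources used here. The table of the whole series repeats the same counts and was not used; 0 of its columns were unmatched.

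Symbols came from RefSeq (GRCm38.p6). Mitochondrial (15) and ribosomal protein genes (124) and 1904 IDs without a symbol (1.66% of reads) were left out, which left 25136 genes. CPM was taken over assigned reads. Mean CPM weighted cells equally; shares of cells were taken after thinning to 50000 reads, at which 1 read is 20 CPM. The labels name no animals, so no test was run across cells. Named genes were all 9 members, the called genes of 5 related lists with the highest per length in each, and genes of like pattern by Spearman correlation, of which none passed. Nid2, Col4a5, Col4a6, Lamc3, Itga6 and Itgb1 were named besides, after their values were seen, and so were the alternatives for the related lists and those without the highest cell of 1 group alone. Members and lists were chosen with earlier results of these data known. No doublet caller was run. 1 related gene and the values that need it are not reported here. Alternatives concerned the cell filter, pseudocount, scaling (TMMwsp of edgeR 4.0.16 and the poscounts rule), the summary over cells, cell identity, mitochondrial share, the low filter, the fold and the detection rule. Python 3.11.15, numpy 2.4.6, pandas 2.3.3, scipy 1.17.1 and R 4.3.3 were used.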

Additional observations from a re-analysis of the deposited data

Results flagged for a closer look

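Cells that failed the filter took no part in the comparisons, and their reads of the 9 genes were counted apart. In the 98 adult cells left out, the 9 genes took 1461 of 1171743 assigned reads, or 0.125% (exact 95% interval 0.118 to 0.131%), while the share was 0.116% over the 139 adult cells that were retained. For the 4 excluded pregnancy cells the figure was 184 of 93619 reads, or 0.197% (0.169 to 0.227%), while it was 0.276% over the 71 that were retained. Both shares are above the limit that a count of 0 allows (0.000256% and 0.0032%), which is what singled them out. That limit stands for 3 reads, so passing it shows only that the genes had reads. The order of the stages was the same in retained and left-out cells, but the left-out pregnancy share rests on 4 cells.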

How the results depend on the processing

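Members called higher in pregnancy numbered 4 with at least 100000 reads and 1500 genes per cell (Lamb1 and Lamb2 besides Lama1 and Lamc1) and 4 with the mean of log2 values (Lamb1 and Lamb3 besides the same genes). Of all tested genes, these settings called 11.0% and 13.8% higher. Members called higher numbered 3 with the poscounts rule (Lama3 besides) and 3 at a threshold of 0.58 (Lamb1 besides). Of all tested genes, those settings called 15.4% and 19.4% higher. Members called lower numbered 0 with a pseudocount of 100 CPM and 0 with the mean of log2 values. Members called between the adult sets numbered 0 with the mean of log2 values. They numbered 1, which was Nid1, with a pseudocount of 100 CPM, TMMwsp scaling, the poscounts rule, summed reads, without the highest cell, without cells over 30% mitochondrial reads and without cells with 3 or more genes of another cell type, the last chosen after seeing the data. For all genes, the share called between the adult sets is given for the main setting only (36.5%). Lama1 and Lamc1 were called higher in all 14 alternatives. Over 11 alternatives the log2 ratio of Lama1 ranged from 1.93 to 3.64, that of Lamc1 from 1.20 to 2.45 and that of Lama5 from -2.57 to -0.52. TMMwsp and the poscounts rule moved the median of all tested genes by 0.24 and 0.25, Nid1 to 0.23 and 0.14, and the share of calls that were higher from 67.6% to 82.4% and 82.3%. The mean of log2 values moved that median by 0.50, over the 4001 genes it left tested, and 94.5% of its calls were higher. A pseudocount of 100 CPM left 67 genes called higher and 40 lower of 9306, and the mean of log2 values 552 and 32 of 4001. A pseudocount of 1 CPM gave 1392 and 900, TMMwsp 1431 and 306 and the poscounts rule 1451 and 313. A threshold of 0.58 gave 1803 and 1039. Without the highest cell of each group the counts were 789 and 233. Of the 10 related genes called, 6 to 10 kept their call, with 6 at a pseudocount of 100 CPM, where Lama2, Itgb4, Dag1 and Bcam lost it. Of 162 recomputed shares of cells with a member, 119 stayed within their interval, as did 69 of 108 shares for trimers. Of 99 recomputed log2 ratios of members, 37 stayed within their counting interval and 62 moved outside it. No paired analysis was possible because the numbers in the titles only name cells. Animals are not named, and depth limits all shares of Lama5, Lamb2, Nid1 and Hspg2.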
